A study of Mus musculus with 6 samples.

Results

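The genes described here are the xenobiotic receptors PXR (Nr1i2) and CAR (Nr1i3), 4 cytochrome P450 genes of their 2 classical target families (Cyp2b10, Cyp3a11, Cyp3a13 and Cyp3a25) and the P450 reductase gene Por. These 7 of the 19616 genes in the deposited count table were chosen by name with their values in this comparison known, so their levels and fold changes are a description and carry no test. RNA was sequenced from jejunal intestinal epithelial cells (IEC), enriched with EDTA, of mice aged 3 months. The control group was 3 wild-type mice, whose libraries are named C1, C3 and C3-3. The Hdac1/2-deleted group was 3 villin-Cre Hdac1-/-; Hdac2-/- mice, with libraries H1, H5 and H9. Both groups had a mixed C57BL/6J, 129SV and CD1 background, and each library came from 1 mouse. The villin promoter drives Cre in the whole intestinal epithelium and is not induced, so Cre was not aimed at 1 epithelial cell type. For enteroids grown from such mice, the paper proposes that a remaining Hdac1 or Hdac2 allele is lost during growth. How complete the deletion was in the cells sequenced here was not tested. The labels name no agonist of either receptor.

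PXR and CAR are nuclear receptors that sense drugs, steroids and bile acids, pair with RXR and bind DNA near genes for detoxifying enzymes. CAR is best known for inducing Cyp2b genes and PXR for inducing Cyp3a genes, and each also acts on targets of the other. The encoded P450 enzymes are haem proteins of the endoplasmic reticulum that oxidize their substrates with electrons passed on by POR, and in the small intestine they act on swallowed compounds before these reach the liver.

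Total counts ranged from 58017009 to 65902344 in control libraries and from 36111035 to 65230566 in deleted libraries, the lowest being H5, and every member passed the filter on low counts. Levels are given as CPM, counts scaled to library size with edgeR's TMM factors. A gene was called increased or decreased at a Benjamini-Hochberg adjusted p of at most 0.05 over the 15618 genes tested with edgeR's quasi-likelihood test and a change of at least 2-fold. In what follows, ± after a level is the SD over 3 mice and ± after a log2 fold change is its standard error (SE). By that rule 12.4% of all tested genes were called increased and 12.7% decreased. Hdac1 was lower in the deleted libraries (log2 fold change -3.43 ± 0.26 SE, adjusted p = 2.9e-05). Hdac2 counts did not pass the test (log2 fold change -0.18 ± 0.17 SE, adjusted p = 0.44), and since the sources used here do not say which exons were removed, a count over the whole gene does not check its deletion. The labels give no sex or batch, but Y-linked Eif2s3y reached 26.6 CPM in C3 and at most 0.0675 in the other libraries, while Xist was 0.234 CPM in C3 and at least 63.5 elsewhere (both genes were looked at after the values were seen). Values without C3 are given with the members.

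Both receptor transcripts were lower on average in Hdac1/2-deleted IEC (log2 fold changes of -1.32 for CAR and -0.75 for PXR). Nr1i3, on chromosome 1 (GRCm38, 171213970 to 171220701, plus strand), was at 57.2, 71.8 and 67.3 CPM in C1, C3 and C3-3. In H1, H5 and H9 it was at 32.0, 22.5 and 24.3 CPM. Every deleted library was below every control library, and the log2 fold change was -1.32 ± 0.17 (SE, n = 3 mice a group), a 2.49-fold lower mean. Over its exons, 66.1% of the Nr1i3 bases are shared with Tomm40l on the opposite strand. The strand setting of the counting is not given in the sources used here. Tomm40l, named for this overlap, went from 28.7 ± 5.57 to 22.8 ± 2.17 CPM (SD, n = 3) and did not pass the test (log2 fold change -0.34, adjusted p = 0.155).

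Nr1i2, on chromosome 16 (38248323 to 38294824, minus strand), was at 230, 122 and 177 CPM in C1, C3 and C3-3. It was at 122, 94.2 and 98.9 CPM in H1, H5 and H9. The groups barely separated, since C3 (122.11 CPM) and H1 (121.58 CPM) were almost level. The log2 fold change was -0.75 ± 0.23, which did not reach 2-fold, and it was -0.95 without C3 and -0.51 without C1. Of all tested genes, 21.5% had a lower log2 fold change than Nr1i2 and 10.6% a lower one than Nr1i3. Among control libraries C1 had the highest Nr1i2 and the lowest Nr1i3, whereas among deleted libraries both receptors were highest in H1 and lowest in H5.

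Cyp2b10 was abundant in control IEC and close to absent in Hdac1/2-deleted IEC. This gene, the classical readout of CAR activity in mouse, lies on chromosome 7 (25897620 to 25926624, plus strand) and was at 688, 1205 and 859 CPM in C1, C3 and C3-3. In H1, H5 and H9 it was at 3.42, 5.16 and 6.62 CPM, which are 253, 196 and 407 counts. The lowest control library was far above the highest deleted one. The log2 fold change was -7.50 ± 0.37, a 181-fold lower mean, and 7 of the tested genes fell by more. Leaving out any 1 mouse kept it between -7.74 and -7.25.

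Cyp3a11, the main drug-inducible Cyp3a gene of mouse liver and gut, lies on chromosome 5 (145854426 to 145879964, minus strand). It was at 1008, 1590 and 1471 CPM in C1, C3 and C3-3 and at 75.9, 56.7 and 140 CPM in H1, H5 and H9. The groups did not overlap, and the mean was 14.9-fold lower (log2 fold change -3.90 ± 0.37). Cyp3a25, in the same chromosome 5 cluster (145977194 to 146009618, minus strand), was at 388, 571 and 628 CPM in the control libraries and at 57.9, 40.3 and 82.9 CPM in H1, H5 and H9. It separated the groups as well, with an 8.76-fold lower mean (log2 fold change -3.13 ± 0.30). H9 had the highest and H5 the lowest level of both genes among deleted libraries.

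Cyp3a13 behaved less uniformly. It lies apart from the cluster on the same chromosome (137892932 to 137921619, minus strand) and is known as a Cyp3a gene of the intestine. It was at 1612, 1276 and 857 CPM in C1, C3 and C3-3 and at 310, 561 and 863 CPM in H1, H5 and H9. The groups overlapped, because H9 (863 CPM) was level with C3-3 (857 CPM), and the log2 fold change was -1.11 ± 0.38. Leaving out 1 mouse at a time moved it from -1.52 (without H9) to -0.81 (without H1). It was no longer called when C1, C3, H1 or H5 was left out, nor with scaling by library totals or RLE size factors, nor without the filter on low counts. Among control libraries the order C1, C3, C3-3 from high to low was the reverse of that of Cyp3a25.

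Por, on chromosome 5 (135670033 to 135735326, plus strand), was at 350, 424 and 442 CPM in C1, C3 and C3-3 and at 281, 244 and 292 CPM in H1, H5 and H9. The groups did not overlap, and the mean was 1.49-fold lower (log2 fold change -0.57 ± 0.15). With scaling by library totals the change was -0.38. Por had the smallest change of the members.

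In sum over members, 5 of 7 were called decreased against 12.7% of all tested genes, and 0 of 7 increased against 12.4% (also 0 at an unadjusted p under 0.05, and 0 with DESeq2 and with limma-voom). For 6 of 7, every deleted library lay below every control library, which held for 26.6% of all tested genes, and for 0 of 7 above, against 26.7%. As the members were chosen from this contrast, nothing is read from these shares. Without C3 the log2 fold changes were -7.25 for Cyp2b10, -3.76 for Cyp3a11, -3.07 for Cyp3a25, -1.24 for Nr1i3, -1.09 for Cyp3a13, -0.95 for Nr1i2 and -0.53 for Por. In such bulk samples, fewer cells of a type and less RNA per cell cannot be told apart.

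**Figure D1:**
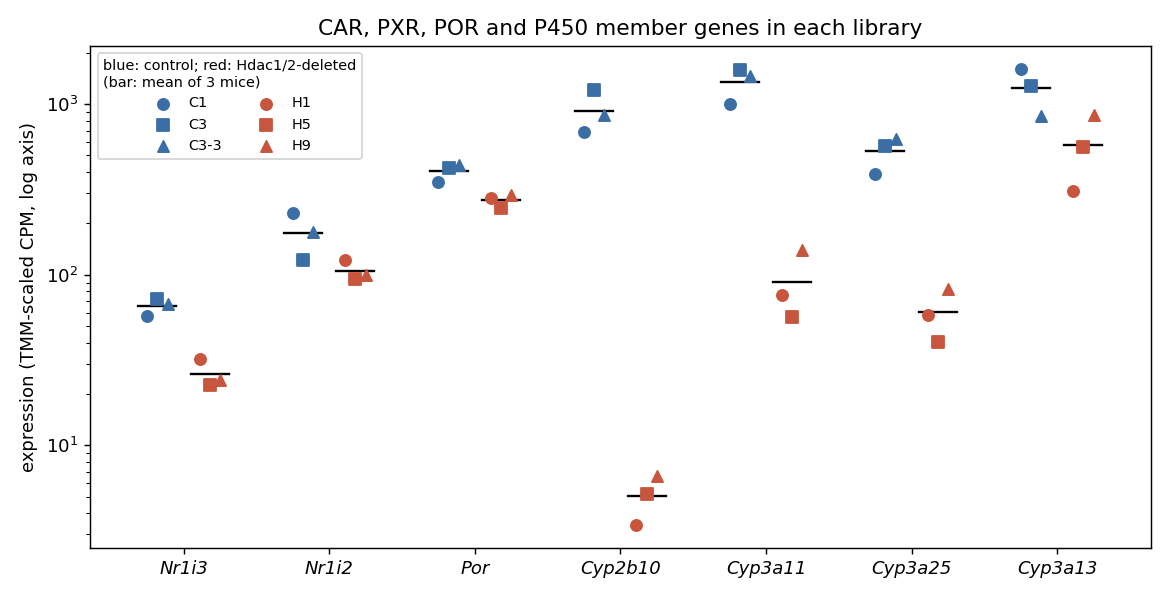
Level of each member in every library, as TMM-scaled CPM on a log axis. Points are single mice (blue control, red Hdac1/2-deleted) and bars the mean of 3. Cyp2b10 lies between 688 and 1205 CPM in control libraries and between 3.42 and 6.62 CPM in deleted ones, while the Cyp3a13 groups overlap at 857 and 863 CPM.

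Per kilobase of exon, which allows levels of different genes to be compared, the control order was Cyp3a11 (579 ± 131 CPM per kb, SD, n = 3), Cyp2b10 (472 ± 136), Cyp3a13 (422 ± 128), Cyp3a25 (265 ± 62.7), Por (127 ± 15.2), Nr1i2 (69.2 ± 21.2) and Nr1i3 (20.0 ± 2.29). Neighbours among the 4 P450 genes overlapped in their single libraries, whereas Cyp3a25 and Por, Por and Nr1i2, and Nr1i2 and Nr1i3 were separate. In Hdac1/2-deleted IEC the order began with Cyp3a13 (196 ± 93.6 CPM per kb) and Por (85.1 ± 7.74). Nr1i2 (41.1 ± 5.73), Cyp3a11 (38.8 ± 18.7) and Cyp3a25 (30.2 ± 10.7) followed, and each overlapped with its neighbour in that order. Nr1i3 (8.02 ± 1.54) and Cyp2b10 (2.61 ± 0.825) came last, each separate from the gene before it. Thus Cyp2b10 moved from among the highest of these genes to below both receptors.

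The level of the 4 P450 genes relative to their reductase also differed. Their summed CPM per kb was 13.7 ± 1.56 times that of Por in control libraries (13.9, 15.2 and 12.1 in C1, C3 and C3-3). In H1, H5 and H9 the ratio was 1.91, 3.10 and 4.36, a mean of 3.12 ± 1.23 (SD, n = 3), below every control library. Most of the remaining sum was Cyp3a13.

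The make-up of the Cyp3a transcripts differed between the groups as well. Of all counts on the 9 Cyp3a genes of the table, not corrected for length, Cyp3a11 held 43.0% ± 8.53 in control libraries and 12.5% ± 4.01 in deleted ones (SD, n = 3). Cyp3a13 held 39.7% ± 12.5 and 76.2% ± 8.37, and Cyp3a25 held 16.8% ± 4.16 and 8.68% ± 3.42. Cyp3a13 was the leading Cyp3a gene in C1 and in all 3 deleted libraries, and Cyp3a11 in C3 and C3-3. The 6 remaining genes together held 0.504% ± 0.0981 and 2.55% ± 1.16 of the counts.

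**Figure D2:**
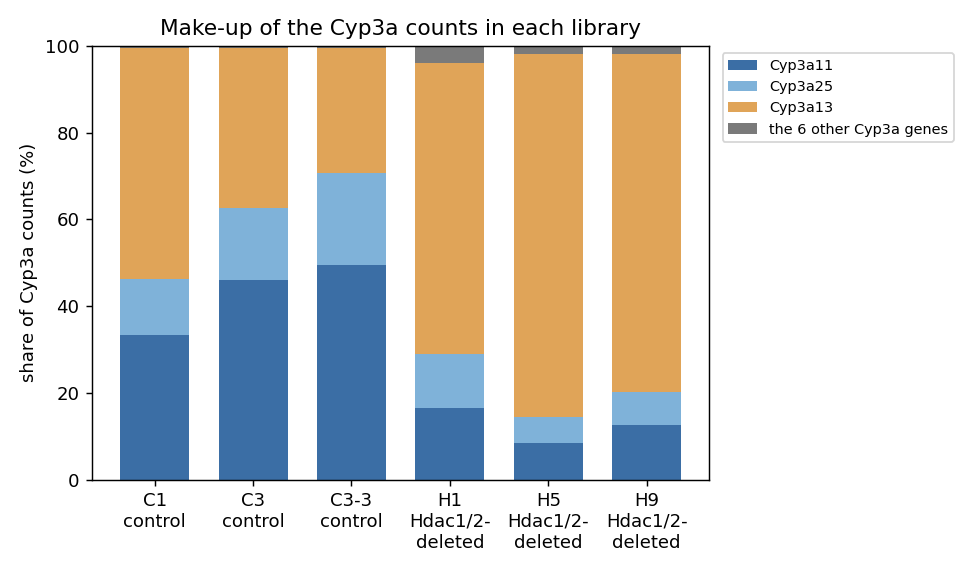
Share of each library's Cyp3a counts (percent, y axis) held by Cyp3a11, Cyp3a25, Cyp3a13 and the other 6 Cyp3a genes in each mouse. The Cyp3a13 share is 28.8% to 53.3% in control libraries and 67.1% to 83.6% in Hdac1/2-deleted libraries.

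These other Cyp3a genes moved in both directions. Of the 10 further Cyp2b and Cyp3a genes listed, 6 were in the table (Cyp2b9, Cyp2b13, Cyp2b19 and Cyp2b23 were not analysed here) and 5 were tested. Of these, 3 were called increased and 1 decreased, against 12.4% and 12.7% of all tested genes. The increased ones are known in liver as genes of young or female mice and were close to 0 in control IEC. They entered the test through the deleted libraries only, so their calls are a description and no p-value is given. Cyp3a41a had 3, 5 and 1 counts in C1, C3 and C3-3 and 193, 64 and 143 in H1, H5 and H9. The ratio of its pooled counts after scaling was 44.8 (95% exact interval 23.4 to 98.7, counting error only). The intervals of these 3 genes leave out the spread between mice, and nothing is read from them. Its neighbour Cyp3a41b had 0, 0 and 1 counts and 48, 32 and 56 counts (ratio 137, interval 24.2 to 5450). Of 100-base stretches of these 2 genes, 90.8% and 88.2% occur in another gene, nearly all in each other, so their counts cannot be told apart.

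Cyp3a16 had 5, 0 and 1 counts in control and 40, 52 and 121 in deleted libraries (ratio 35.8, interval 16.2 to 98.6). Even so, the highest of these levels was low, at 2.61 CPM for Cyp3a41a in H1. The coding bases of Cyp3a11 match those of Cyp3a41a at 95.2% and those of Cyp3a16 at 92.8% of positions, and 0.312% of the 100-base stretches of Cyp3a11 recur in another gene. The part of reads assigned to the wrong gene was not tested. Cyp3a44 did not pass the test, at 10.3 ± 3.21 CPM in control and 12.1 ± 2.70 CPM in deleted libraries (log2 fold change 0.24 ± 0.27, adjusted p = 0.52). Cyp3a59, whose coding sequence matches that of Cyp3a25 at 97.5% of bases, fell from 5.13 ± 1.34 to 0.590 ± 0.298 CPM (log2 fold change -3.09 ± 0.44, adjusted p = 0.00066). The pair shares 5.75% of the 100-base stretches of Cyp3a25. Cyp3a57 was not tested, with 4, 15 and 13 counts in control and 0, 0 and 5 in deleted libraries.

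The sequences before the starts of these genes are shown because the Cyp3a genes differed in their changes and several have closely related promoters. Among genes called in opposite directions, the most alike windows were those of Cyp3a11 and Cyp3a16, at 75.2% identity. RefSeq promoter windows of GRCm38.p6, from 250 bases before to 50 bases after the start, were found for 13 of 13 genes searched. They were searched on both strands for AGGTCA and AGTTCA, the half-sites that nuclear receptors such as PXR and CAR bind in pairs. Below are the 250 bases before the start of 6 genes, 5′ to 3′ on the gene's strand, with half-sites on either strand in capitals. They lie at chr7:25897408-25897657 (plus strand) for Cyp2b10 and, all on the minus strand, at chr5:145879855-145880104 for Cyp3a11, chr5:146009619-146009868 for Cyp3a25, chr5:137921620-137921869 for Cyp3a13, chr5:145720137-145720386 for Cyp3a41a and chr5:145805875-145806124 for Cyp3a44.
Cyp2b10: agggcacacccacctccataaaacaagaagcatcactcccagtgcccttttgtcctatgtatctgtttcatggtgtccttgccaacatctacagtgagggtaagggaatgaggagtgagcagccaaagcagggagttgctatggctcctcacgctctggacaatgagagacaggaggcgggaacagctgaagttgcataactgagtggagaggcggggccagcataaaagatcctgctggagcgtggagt
Cyp3a11: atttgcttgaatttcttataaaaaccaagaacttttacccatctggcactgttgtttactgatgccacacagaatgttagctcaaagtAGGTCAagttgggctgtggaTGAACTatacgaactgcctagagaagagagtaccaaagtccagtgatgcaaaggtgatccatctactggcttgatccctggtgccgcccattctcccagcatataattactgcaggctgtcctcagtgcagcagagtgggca
Cyp3a25: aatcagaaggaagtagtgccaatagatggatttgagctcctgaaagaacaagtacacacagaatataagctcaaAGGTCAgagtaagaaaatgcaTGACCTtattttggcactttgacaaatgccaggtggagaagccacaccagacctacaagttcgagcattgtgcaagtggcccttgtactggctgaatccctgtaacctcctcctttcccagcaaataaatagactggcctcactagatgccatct
Cyp3a13: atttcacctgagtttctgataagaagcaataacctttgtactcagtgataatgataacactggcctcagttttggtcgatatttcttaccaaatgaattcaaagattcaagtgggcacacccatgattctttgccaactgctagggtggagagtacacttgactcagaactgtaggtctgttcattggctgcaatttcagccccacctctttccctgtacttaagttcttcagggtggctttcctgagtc
Cyp3a41a: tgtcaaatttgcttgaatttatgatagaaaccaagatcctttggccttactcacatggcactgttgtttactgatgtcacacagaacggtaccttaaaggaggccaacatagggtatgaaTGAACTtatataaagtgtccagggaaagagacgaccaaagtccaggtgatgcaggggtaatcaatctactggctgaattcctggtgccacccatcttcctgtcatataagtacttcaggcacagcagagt
Cyp3a44: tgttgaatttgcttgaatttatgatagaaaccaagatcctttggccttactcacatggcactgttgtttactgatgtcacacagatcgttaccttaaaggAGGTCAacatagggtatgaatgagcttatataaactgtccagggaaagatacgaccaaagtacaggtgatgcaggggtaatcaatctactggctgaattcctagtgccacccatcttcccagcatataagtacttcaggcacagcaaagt

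Cyp3a11 holds AGGTCA from base -162 to -157, counted from the start, and AGTTCA on the opposite strand from -142 to -137. Cyp3a25 holds AGGTCA from -176 to -171 and again on the opposite strand from -155 to -150. Among the members, the windows of Nr1i2, Nr1i3, Cyp2b10, Cyp3a13 and Por hold 0 half-sites. The Por window (chr5:135688895-135689194) lies inside the Por gene as placed above, so it surrounds an internal start. Of the genes that rose, Cyp3a41a and Cyp3a41b hold 1 each (AGTTCA, opposite strand, -130 to -125) and Cyp3a16 holds 0, while Cyp3a44 holds 1 (AGGTCA, -150 to -145). Cyp3a59, called decreased, holds AGGTCA from -177 to -172 and on the opposite strand from -156 to -151. Cyp3a57, not tested, holds AGGTCA from -174 to -169 and on the opposite strand from -153 to -148. Of all 32851 windows, 27.7% hold at least 1 of either half-site (16.3% AGGTCA, 14.0% AGTTCA). None of the 13 windows holds a pair as a direct repeat spaced by 3, 4 or 5 bases or as an everted repeat spaced by 6 or 8, which 0.1% of all windows do. A match is only a match of these letters, and the known phenobarbital-responsive enhancer of Cyp2b10 lies further upstream than these windows reach.

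Genes with similar windows did not always have the same call. The windows of Cyp3a41a and Cyp3a44 are 93.0% identical, yet the first gene was called increased and the second was not called. The windows of Cyp3a25 and Cyp3a59 are 95.7% identical, and both genes had lower levels. Cyp3a11 and Cyp3a41a, which moved in opposite directions, share 71.6% of window bases, and Cyp3a11 and Cyp3a13 share 57.4%.

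Genes known to be induced through CAR or PXR outside the Cyp2b and Cyp3a families were lower in part. Of 22 listed, 19 were tested. Of these, 7 were called decreased (1 of them, Cyp2a5, from very few counts) and 0 increased, against 12.7% and 12.4% of all tested genes. Their median log2 fold change was -0.99, against -0.0081 for all tested genes. By edgeR 2 of the 19 were higher at an unadjusted p under 0.05, and DESeq2 called 1 and limma-voom 0 increased. The list was written with earlier results of these data known.

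Ces2a, a carboxylesterase that cleaves drug esters, fell from 455, 684 and 713 CPM to 29.7, 28.1 and 64.7 CPM (log2 fold change -3.92 ± 0.38, adjusted p = 2e-04). Gstm2, a glutathione transferase, fell from 31.4, 50.3 and 52.1 CPM to 2.29, 3.13 and 3.66 CPM (-3.88 ± 0.27, adjusted p = 1.8e-05). Akr1b7, an aldo-keto reductase, fell from 501, 236 and 534 CPM to 48.0, 20.7 and 40.7 CPM (-3.54 ± 0.43, adjusted p = 0.00078). In each of these genes the groups were widely separate.

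Ephx1, microsomal epoxide hydrolase, fell from 14.3, 47.3 and 34.2 CPM to 2.89, 2.97 and 2.65 CPM (log2 fold change -3.49 ± 0.42, adjusted p = 5e-04). Ugt1a1, a bilirubin and drug glucuronidating enzyme whose last exons are shared with the other Ugt1a genes, fell from 228 ± 8.55 to 45.6 ± 16.2 CPM (SD, n = 3; -2.32 ± 0.24, adjusted p = 0.00012). Cyp2a5 had 38, 37 and 98 counts in control and 0, 1 and 1 in deleted libraries, and it entered the test through the control libraries only. Gstm3 was at 158, 921 and 651 CPM in C1, C3 and C3-3 and 128, 97.7 and 147 CPM in H1, H5 and H9 (-2.22 ± 0.61, adjusted p = 0.029). Its call was lost when any 1 mouse other than C1 was left out. The most abundant gene of the list without a call was Papss2, which makes the sulfate donor for conjugation, at 884 ± 262 CPM in control and 1628 ± 269 in deleted libraries (0.88 ± 0.25, adjusted p = 0.019).

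**Figure D3:**
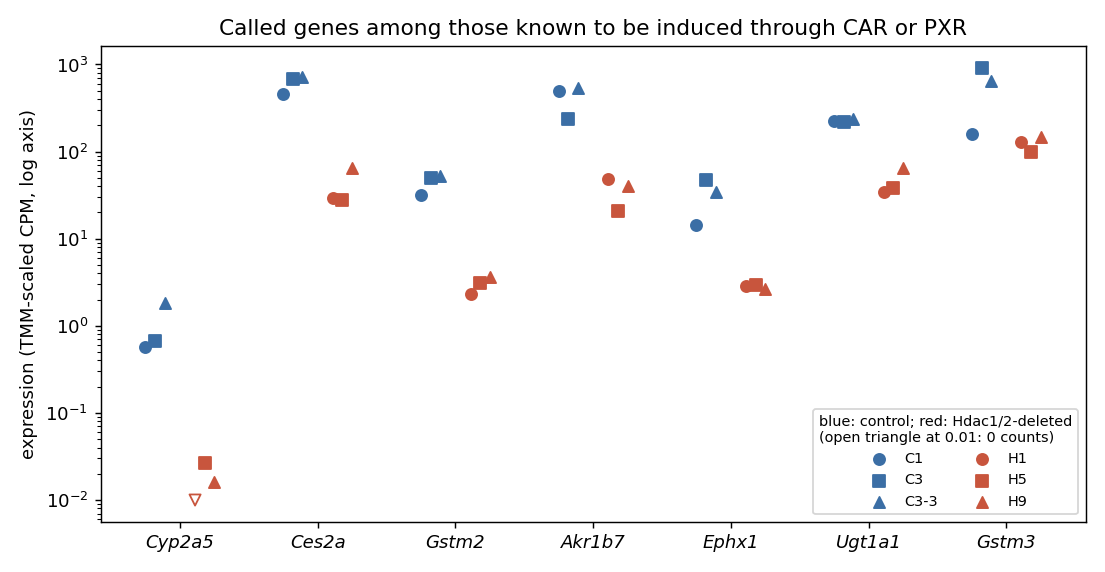
Level in each library of the 7 called genes among those known to be induced through CAR or PXR, as TMM-scaled CPM on a log axis (blue control, red Hdac1/2-deleted, 1 point a mouse, an open triangle for 0 counts). For each gene the 3 deleted libraries lie below the 3 control libraries, narrowly so for Gstm3, where C1 was at 158 CPM and H9 at 147 CPM. The genes shown were taken because they were called decreased, so nothing is read from this. Of all 19 tested genes of the list, 8 lay below, 2 above and 9 overlapped, while 26.6% of all tested genes lay below and 26.7% above.

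C1 was the extreme control library for several of these genes, which were picked out after their values were seen. It had the lowest control level of Nr1i3, Cyp2b10, Cyp3a11, Cyp3a25, Por, Ces2a, Gstm2, Gstm3 and Ephx1, and the highest of Nr1i2 and Cyp3a13. Without C1, 11 of the induced genes were called decreased in place of 7. The log2 fold changes without C1 were -0.51 for Nr1i2 and -0.88 for Cyp3a13, which was then no longer called, and -1.40 for Nr1i3, -7.67 for Cyp2b10, -4.07 for Cyp3a11, -3.31 for Cyp3a25 and -0.66 for Por.

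Of the partners and regulators of PXR and CAR, 24 of 25 listed genes were tested. Of these, 2 were called increased and 3 decreased, against 12.4% and 12.7% of all tested genes, so the counts do not set the list apart. The median change of the list was -0.10 on the log2 scale. Vdr, the vitamin D receptor, which can act on the same response elements, fell from 870 ± 78.8 to 330 ± 48.6 CPM (log2 fold change -1.40 ± 0.17, adjusted p = 0.00031). Nr3c1, the glucocorticoid receptor, which raises expression of both receptors in liver, fell from 113 ± 4.16 to 50.5 ± 7.81 CPM (-1.17 ± 0.15, adjusted p = 0.00039). Ncor1, a nuclear receptor corepressor that works with HDAC3, was at 338 ± 46.1 and 168 ± 11.4 CPM (-1.01 ± 0.15, adjusted p = 0.00095). The Ncor1 call rests on the 2-fold limit and was lost under 7 of the alternatives.

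Prmt1, an arginine methyltransferase that acts as a coactivator, rose from 2.91 ± 0.734 to 8.23 ± 2.24 CPM (2.82-fold, adjusted p = 0.0038). Hsp90ab1, the chaperone that holds unliganded CAR in the cytoplasm, rose from 923 ± 283 to 1895 ± 234 CPM (1.04 ± 0.23, adjusted p = 0.007), a call that was lost without C3, C3-3 or H5. Hnf4a, which activates both receptor genes in liver and was the most abundant gene without a call, was at 728 ± 43.7 and 593 ± 33.3 CPM (-0.30 ± 0.14, adjusted p = 0.13).

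Among 5 electron or binding partners of P450 other than Por, 1 was called decreased and 0 increased, against 12.7% and 12.4% of all tested genes. The number increased was also 0 at an unadjusted p under 0.05 (edgeR), with DESeq2 and with limma-voom. The decreased gene was Pgrmc1, a membrane haem protein that binds P450 enzymes, from 312 ± 18.3 to 121 ± 8.94 CPM (log2 fold change -1.37 ± 0.14, adjusted p = 1e-04). Cyb5r3, the cytochrome b5 reductase, had the highest mean over all 6 libraries of those without a call, at 1085 ± 275 and 1165 ± 193 CPM (0.10 ± 0.23, adjusted p = 0.75). Of 12 genes of haem synthesis and breakdown, 1 was called increased and 1 decreased, against 12.4% and 12.7% of all tested genes. The median log2 fold change of the haem genes was -0.11. Hmox1, the inducible haem oxygenase, rose from 0.608 ± 0.159 to 3.31 ± 0.678 CPM (2.44 ± 0.33, adjusted p = 0.00056). Blvra, a biliverdin reductase, was at 19.4 ± 1.14 and 9.67 ± 0.653 CPM (-1.01 ± 0.16, adjusted p = 0.0011), close to the 2-fold limit. Alas1, the first enzyme of haem synthesis and itself inducible through both receptors, was at 186 ± 31.0 and 131 ± 20.9 CPM and was not called (-0.50 ± 0.18, adjusted p = 0.046).

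**Figure D4:**
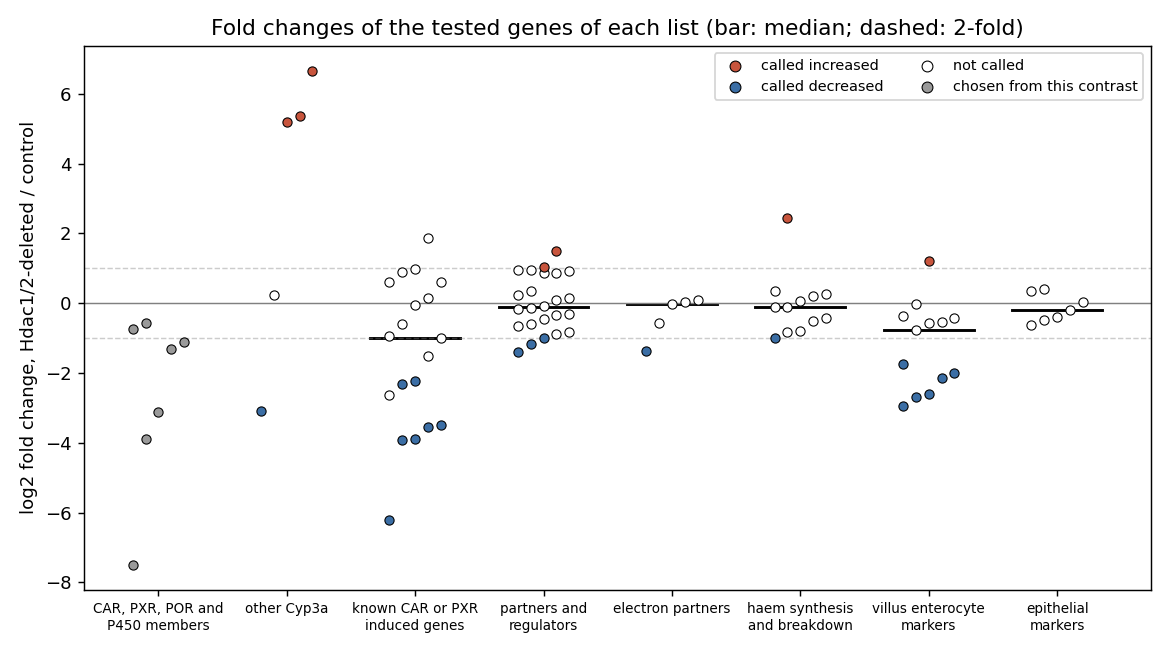
Log2 fold change (Hdac1/2-deleted over control) of every tested gene of 8 lists, 1 point a gene, with the median as a bar for 6 of them. Red and blue points are called increased and decreased, open points are not called, and grey points are the members, which were chosen from this contrast. The induced genes have 7 blue and 0 red points, and the epithelial markers have no coloured point.

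The nearest genes by pattern were sought among 8330 tested genes whose mean log2 CPM reached 3, by the root mean square difference of centred log2 CPM over the 6 libraries. For Cyp3a11 the nearest was Ces2a (difference 0.11 on the log2 scale), ahead of Iyd (0.24) and Pnliprp2 (0.29). For Cyp2b10 none came close: Vnn1 was at 0.70, Pdk4 at 1.18 and Ang4 at 1.21. For Nr1i3 they included Cpsf7 (0.07) and Trafd1 (0.08), and for Nr1i2 they were Zfp422 (0.07), Pank3 (0.07) and Rock2 (0.10). These 6 points share the split into 2 groups, so the distances are a description.

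Markers of cell types moved with the groups in part. For the counts of calls below, 12.4% of all tested genes were called increased and 12.7% decreased. Of 13 villus enterocyte markers, 6 were called decreased and 1 increased (median log2 fold change -0.78). Their summed level was 92710 to 106000 CPM in control and 36820 to 49800 CPM in deleted libraries. The largest parts of the control sums were Apoa4 (mean 38393 CPM, and 6283 in deleted libraries) and Apoa1 (22706 and 13216 CPM, not called). Among the villus markers, Ace fell most (-2.94, adjusted p = 9.7e-05) and Alpi rose (1.20, adjusted p = 0.019), a call lost without C1, C3-3, H1 or H5. Of 7 epithelial markers 0 were called (edgeR, with 1 higher and 2 lower at an unadjusted p under 0.05, and 0 with DESeq2 and limma-voom), with sums of 11480 to 13510 and 9660 to 11930 CPM that overlapped. Of 10 crypt and cell cycle markers, Mcm2 rose (1.02, adjusted p = 0.01), Olfm4 fell most (-1.58, adjusted p = 0.0024) and 1 other was called decreased, with sums of 501 to 720 and 298 to 526 CPM. The Mcm2 call was lost without C3, C3-3, H1 or H5. Of 7 secretory cell markers 4 were called decreased, with Defa24 falling most (-5.13, adjusted p = 8.6e-06) and sums of 5175 to 6777 and 1221 to 2333 CPM.

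Of 7 immune markers tested, Cd8a was called decreased (-1.32, adjusted p = 0.038), although its groups overlapped and the call was lost when any 1 mouse other than C1 was left out. The immune sums were 92.6 to 110 CPM in control and 40.4 to 73.6 CPM in deleted libraries, but in C1 Jchain alone held 59.6 CPM. Of the 7 tested markers, 0 had every deleted library below every control library and 1 had every one above. Over all tested genes these shares were 26.6% and 26.7%. Of 6 stromal markers tested, Acta2 and Des (not called without H1 or H9) were called decreased. With 6, 1 and 6 counts of Acta2 and 7, 8 and 5 of Des in H1, H5 and H9, both entered the test through the control libraries. Their calls are therefore a description and no p-value is given. Acta2 was at 12.5 and 11.1 CPM in C1 and C3 and at 0.602 CPM or less in the other libraries, and the stromal sums were 4.01 to 34.8 and 3.66 to 8.97 CPM. Of 6 hepatocyte markers, Ttr, Serpina1a and Tat were called increased, with sums of 490 to 698 and 542 to 849 CPM that were mostly Cps1. Tat, with the largest fitted change, had 6, 4 and 4 counts in control and 146, 491 and 71 in deleted libraries, and it entered the test through the deleted libraries only. Serpina1a, with 3, 12 and 3 counts in control and 34, 52 and 61 in deleted libraries, also entered the test through the deleted libraries. The hepatocyte marker Alb, however, was at 0.216 to 0.997 CPM and fell (-1.82, adjusted p = 0.0047). Of 4 gut segment markers, Slc10a2, the ileal bile acid transporter, rose (2.48, adjusted p = 0.019), a call lost without C3-3, H1 or H9, and the sums were 170 to 216 and 181 to 205 CPM. The part of these differences in the levels of the receptors and P450 genes was not tested.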

How the data were processed

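RNA-Seq libraries were made from poly(A) RNA of EDTA-enriched jejunal IEC with a directional kit, after selection for an RNA integrity number over 6.5, from 3 control and 3 Hdac1/2-deleted mice. According to the methods of the study, the authors aligned reads with STAR to GRCm38, whereas the submitters' processing notes name STAR 2.4.0f1 and mm9. The counting program, annotation and strand setting are not given in the sources used here. The values used are the raw counts per gene deposited by the authors. The rounded normalized values and the columns of the authors' own comparison in the same table (fold changes, mean expression and p-values) were not used.

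Counts were filtered with filterByExpr, scaled by TMM and fitted with edgeR 4.0.16 (robust quasi-likelihood test, limma 3.58.1, R 4.3.3, prior count 0.125, no covariate), and p-values were adjusted over all 15618 genes tested by the Benjamini-Hochberg method. P-values set the difference between the groups against the spread between these mice, which edgeR estimates with the help of all tested genes. An exact permutation test of 3 against 3 cannot go below 0.1. Steps were tested on simulated data. At these depths 3 counts correspond to 0.0405 to 0.079 CPM. Positions, exon lengths and shared 100-base stretches came from GENCODE M21 (GRCm38), which holds 19526 of the deposited gene identifiers, and promoter windows from RefSeq (GRCm38.p6). DESeq2 1.42.0 and limma-voom served as alternatives, and plots were drawn with matplotlib 3.10.9 in Python 3.11.15.

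The members and all gene lists were chosen with earlier results of these data known. The text names all members, all further Cyp2b and Cyp3a genes of the table, the called genes and the most abundant gene without a call of each pathway list, of each marker list the called genes with the largest rise and fall and defining markers near 0, and the 3 nearest genes of 4 members. Tomm40l, Eif2s3y and Xist were added after their values were seen. Some genes that this rule takes are not reported here.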

Additional observations from a re-analysis of the deposited data

How the results depend on the processing

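The log2 fold changes of the 7 members kept their direction under all 13 alternatives run for each (90 of 91 values moved by less than the spread between mice). The exception was Por, at -0.38 with library totals. Library totals moved the median of all genes to 0.18, against -0.0081, and called 2463 genes increased and 1538 decreased, against 1944 and 1990. Without the 2-fold limit 3198 and 3168 genes passed. With each mouse left out in turn, 4 to 5 members were called decreased. Of the induced genes, 2 were called increased with library totals or without the 2-fold limit, 1 each with RLE, DESeq2 or at least 10 counts in every sample, and 0 to 2 with 1 mouse left out, while 6 to 11 were called decreased, 11 without C1. Of the regulators, 7 were called increased and 1 decreased with library totals, 6 and 8 without the 2-fold limit, and 1 to 4 increased with 1 mouse left out. Of the haem genes, 0 were called decreased with library totals, RLE, DESeq2 or at least 10 counts, 4 without the 2-fold limit and 0 to 1 with 1 mouse left out. Electron or binding partners of P450 called decreased numbered 2 without the 2-fold limit. Further Cyp3a genes called increased numbered 0 with at least 10 counts, since that filter removes them from the test, and 1 to 2 were called decreased with 1 mouse left out. Villus markers called increased numbered 0 to 1 with 1 mouse left out. Beyond these filters and limits, the cause of each change was not tested. No paired analysis was possible because the control and deleted mice share fewer than 2 replicate numbers. At these depths, levels under 0.0405 to 0.079 CPM cannot be shown, which limits Cyp3a16, Cyp3a41a and Cyp3a41b in control IEC and Cyp2a5 in deleted IEC.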
